A study of Mus musculus with 8 samples.

Results

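The messenger RNAs of the proteasome were followed in sorted liver sinusoidal endothelial cells (LSECs), the perforated lining of the liver's capillaries, after an intravenous load of iron. The members were the targets whose mouse symbol names an alpha (*Psma*), beta (*Psmb*), ATPase (*Psmc*) or non-ATPase (*Psmd*) subunit or an activator (*Psme*) followed by a number. They came to 39 of the 23930 targets in the count files, and all 39 passed the low-count filter and were tested. The rule names 43 genes in the reference table, of which *Psma3*, *Psma5*, *Psmb5* and *Psme2* had no matched target and were not analysed here. Cells came from wild type female Balb/c mice and were gated as CD45-dim, STAB2-high and CD146-high. The buffer group (4 libraries) was taken 5 h after an injection of 0.05 M citrate buffer, and the iron group (4 libraries) 5 h after an injection of iron citrate (150 µg). No transgene or deletion is named for either group, and 1 mouse is named per library. The amplicon kit used for the libraries reads a gene through 1 short product, so values of 1 gene are compared between libraries, and levels of different genes are not ranked.

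The proteasome is the protease that degrades proteins tagged with ubiquitin. Its core, the 20S particle, is a stack of outer alpha rings and inner beta rings with the catalytic sites in the beta rings, and the 19S cap recognises, unfolds and feeds substrates with a ring of ATPases and a set of non-ATPase subunits. Interferon replaces the catalytic beta subunits with inducible ones, which gives the immunoproteasome of antigen presentation, and the PA28 and PA200 activators can bind the core in place of the cap. Under oxidative stress cells degrade damaged proteins, and NRF2 (*Nfe2l2*) and its relative NRF1 (*Nfe2l1*) are known as transcription factors that can raise proteasome genes.

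Counts on targets ranged from 7969520 to 11314659 per library, and the members drew 0.373% to 0.451% of them. The cells carried the markers of the gate, with the 12 sinusoidal markers of a fixed list summing to 16293 to 31977 CPM (counts scaled to a common library size) after buffer and 25955 to 28362 CPM after iron, among them *Clec4g* and *Dnase1l3* (9461 ± 1999.97 and 4655 ± 1274 CPM after buffer, SD, n = 4). Leukocyte markers (13 measured, none at 0) summed to 3557 to 4981 CPM after buffer and 3689.98 to 4399.6 CPM after iron, *Cd74* and *Laptm5* among them. Hepatocyte markers (7 measured) summed to 425 to 784 and 334 to 675 CPM, with *Alb* and *Hamp* among them, and stellate cell markers (6 measured) to 263 to 654 and 430.4 to 652 CPM, with *Dcn* and *Rgs5* among them. edgeR called no marker of these 4 lists with all 8 libraries. At an unadjusted p under 0.05 were *Lyve1* (log2 fold change 0.61), *Mcam*, the gate's CD146 (-0.50), and the leukocyte gene *Cd52* (-0.56). Of all tested targets, 6.57% were higher and 8.0% lower at this threshold. The gate's *Stab2* had a log2 fold change of -0.15 (95% interval -0.51 to 0.20, edgeR adjusted p = 0.617). *Mcam* was called lower by DESeq2 (adjusted p = 0.00319), by limma-voom (0.00813), without buffer replicate 1 (edgeR, 0.0135) and with the silent-family covariate described next (edgeR, 0.00537). Buffer replicate 1 stood apart, with a median correlation of 0.84 with its own group against 0.96 to 0.98 for the other libraries. It also had 2.42% of its counts on gene families that liver is not known to express, such as olfactory receptors. The share was 0.983% in buffer replicate 2 and 0.295% to 0.611% in the other 6. Sinusoidal markers summed to 16293 CPM in buffer replicate 1, against 24550 to 31977 CPM in the other buffer libraries. It was the lowest of the 8 libraries in 9 of the 12, and in 36.7% of all tested targets. Its leukocyte sum, 4981 CPM, was the highest of the 8, though it was lowest in 3 of those 13 markers. In the same libraries edgeR called 7 of 8 NRF2 targets higher, against 0.527% of all tested targets. They were measured as a check of the iron response. The exception, *Slc7a11*, had only 4 to 14 counts per library. The haem oxygenase *Hmox1* rose from 88.5 ± 25.1 to 3232 ± 322 CPM (edgeR adjusted p = 1.19e-05). The quinone reductase *Nqo1* rose from 6.24 ± 1.79 to 169 ± 15.7 CPM (edgeR adjusted p = 5.71e-06).

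None of the 39 subunits was called higher and none lower by edgeR's quasi-likelihood test at an adjusted p under 0.05, where 0.527% of the 14601 tested targets were called higher and 0.0274% lower. At an unadjusted p under 0.05, 5 members were higher and none lower, against 6.57% and 8.0% of all tested targets. DESeq2 called 2 members higher (2.02% of all targets) and none lower (0.479%), and limma-voom called 3 higher (1.68%) and none lower (0.295%). Without buffer replicate 1, edgeR called 2 members higher (1.5%) and none lower (0.258%). Without both buffer replicates 1 and 2 it called 1 higher (1.35%) and none lower (0.546%). With the log2 of the silent-family share as a covariate it called 3 higher (1.6%) and 1 lower (0.644%). The members called higher in any of these were *Psme4*, *Psmd1* and *Psmd7*, and the one called lower was *Psmb10*. Over the members the log2 fold change had a median of 0.03, with 21 above 0 and 18 below, and over all tested targets a median of -0.01, with 49.0% above 0 and 51.0% below. Buffer replicate 1 was the lowest of the 8 libraries in 14 members (36.7% of all targets) and the highest in 7 (37.3%). The 95% interval of the fold change lay within a 2-fold change either way for 36 of the 39 members (55.1% of all targets), and within 1.5-fold for 20 of them (23.3%). The 3 members whose interval reached beyond 2-fold were *Psma8*, *Psmb11* and *Psme4*. In sum the members took 3922, 3627, 4264 and 4184 CPM in buffer replicates 1 to 4 and 3827, 3961, 4431 and 3962 CPM in iron replicates 1 to 4, so the groups overlapped. In bulk RNA from sorted cells, fewer cells of a type and less RNA per cell cannot be told apart.

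**Figure D1:**
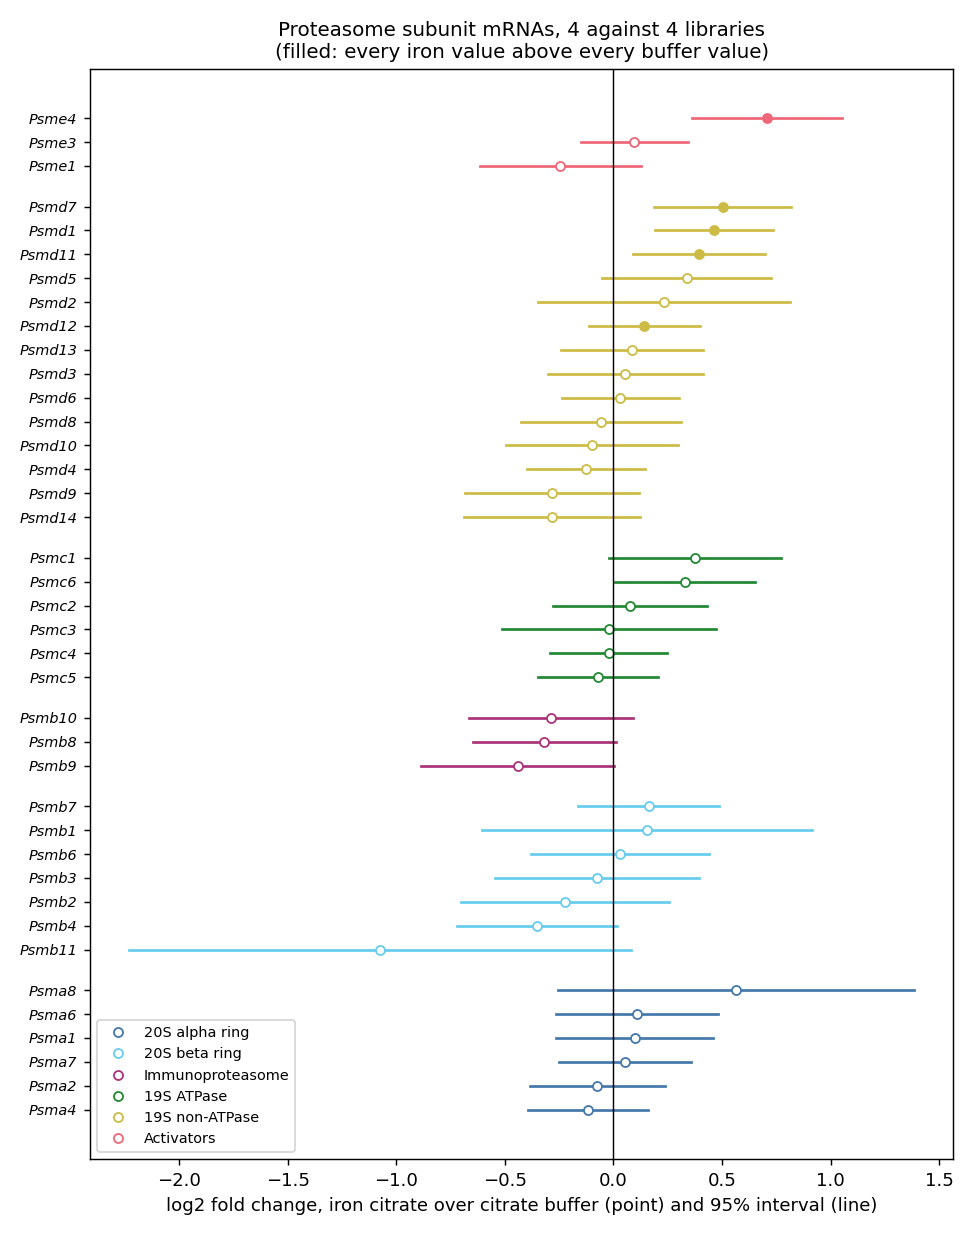
Fitted log2 fold change of each of the 39 proteasome subunit mRNAs, iron citrate over citrate buffer (x axis, point) with its 95% interval (line), grouped and coloured by the part of the proteasome. Most intervals cross 0, filled points mark the 5 members whose 4 iron values all lay above the 4 buffer values, and the 3 immunoproteasome subunits all lie left of 0 with intervals that reach it.

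In 5 members the 4 iron values all lay above the 4 buffer values, and in none did they all lie below. Among all tested targets 6.38% had every iron value above and 2.29% every iron value below. Without buffer replicate 1, the count above was 6 (8.71% of all targets), with *Psme3* added, and *Psmb9* lay below (4.22%). Without both buffer replicates 1 and 2, the counts were 6 above (12.1%) and 7 below (10.0%). The 5 were *Psme4*, *Psmd1*, *Psmd7*, *Psmd11* and *Psmd12*, of which 4 are non-ATPase subunits of the 19S cap and 1 is an activator.

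The start regions of these members are shown because NRF2 binds the antioxidant response element, whose core is written here as TGACNNNGC. RefSeq promoter windows (GRCm38.p6, 250 bases before to 50 after the start) were on hand for 32 of the 39 members, as 34 windows, and *Psmd7* had none. The core, read on both strands, was found in 5 of the 34 member windows (14.7%) and in 12.4% of all 32851 windows. The windows with it belonged to *Psmb6*, *Psmc6*, *Psmd9*, *Psmd12* and *Psme4*. The CCAAT box (CCAAT, both strands), a motif of factor NF-Y, was in 13 of the 34 windows (38.2%) and in 37.4% of all windows. Shown are the first 252 bases of the windows of *Psme4* (chr11:30771525-30771776), *Psmd12* (chr11:107479278-107479529), *Psmd1* (chr1:86064369-86064620) and *Psmd11* (chr11:80428365-80428616), all on the plus strand and chosen after their values were seen, with each match to the core or its reverse complement in capitals.
Psme4: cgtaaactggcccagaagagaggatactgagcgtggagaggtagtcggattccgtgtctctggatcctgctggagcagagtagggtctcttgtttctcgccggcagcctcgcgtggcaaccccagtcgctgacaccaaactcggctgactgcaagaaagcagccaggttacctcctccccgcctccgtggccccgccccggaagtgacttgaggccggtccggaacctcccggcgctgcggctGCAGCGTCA
Psmd12: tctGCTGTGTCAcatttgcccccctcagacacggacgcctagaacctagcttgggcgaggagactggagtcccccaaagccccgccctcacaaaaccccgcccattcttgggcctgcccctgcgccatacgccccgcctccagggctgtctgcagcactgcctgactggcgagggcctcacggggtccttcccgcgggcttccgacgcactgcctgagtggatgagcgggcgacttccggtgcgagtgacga
Psmd1: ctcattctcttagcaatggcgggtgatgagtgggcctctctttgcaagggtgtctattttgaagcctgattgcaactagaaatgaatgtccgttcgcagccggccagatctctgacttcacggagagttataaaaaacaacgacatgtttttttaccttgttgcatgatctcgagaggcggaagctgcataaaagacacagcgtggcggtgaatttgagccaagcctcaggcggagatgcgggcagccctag
Psmd11: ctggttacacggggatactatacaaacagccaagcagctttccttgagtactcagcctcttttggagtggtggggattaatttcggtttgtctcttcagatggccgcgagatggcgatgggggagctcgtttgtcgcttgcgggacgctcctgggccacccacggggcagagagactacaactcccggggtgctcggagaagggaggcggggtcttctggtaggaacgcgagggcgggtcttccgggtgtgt
The core lies at the start site in *Psme4*, at the far end of the window in *Psmd12*, and is not in the windows of *Psmd1* and *Psmd11*. A match is a run of letters and no measured binding site.

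*Psme4* encodes PA200, a nuclear activator that opens the 20S core without ubiquitin. Its mRNA stood at 42.3, 42.2, 54.3 and 60.9 CPM in buffer replicates 1 to 4 and 77.1, 75.9, 92.7 and 80.0 CPM in iron replicates 1 to 4. All iron libraries were above all buffer libraries, with a gap from 60.9 to 75.9 CPM. The means were 49.9 ± 9.24 and 81.4 ± 7.68 CPM (SD, n = 4), a 1.63-fold difference with a 95% interval of 1.29 to 2.07 (edgeR adjusted p = 0.124). No other member had a lower p. Over the 18 alternative analyses its adjusted p ran from 0.00278 to 0.430, and it was called higher in 4, by DESeq2, by limma-voom, without buffer replicate 1 and with the silent-family signal as a covariate.

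The other activators had overlapping groups. *Psme1*, a subunit of the interferon-inducible PA28 ring, was at 402, 273, 373 and 315 CPM after buffer and 232, 284, 324 and 312 CPM after iron. Its log2 fold change was -0.24 (95% interval -0.61 to 0.13, edgeR adjusted p = 0.424). *Psme3*, the nuclear member of the PA28 family, was at 111, 95.1, 104 and 102 CPM after buffer and 108, 105, 107 and 119.8 CPM after iron, a log2 fold change of 0.10 with one of the narrower intervals (-0.15 to 0.34). These differences between activators were not tested against each other.

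Of the 14 non-ATPase subunits of the cap, none was called. At an unadjusted p under 0.05, 3 were higher, against 6.57% of all tested targets. The median log2 fold change of the 14 was 0.07 (range -0.28 to 0.50). *Psmd1*, the large scaffold at the base of the cap, was at 77.7, 79.3, 73.2 and 72.3 CPM after buffer and 98.9, 122, 93.8 and 103 CPM after iron. The buffer libraries were close together and the 4 iron libraries lay above them, with iron replicate 2 highest. The fold difference was 1.38 (95% interval 1.14 to 1.67, edgeR adjusted p = 0.209), and the gene was called in 3 of 18 alternatives (adjusted p 0.0235 to 0.484).

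*Psmd7*, the partner of the deubiquitinase of the lid, was at 159.5, 128, 119 and 113 CPM after buffer and 172, 191, 171 and 204 CPM after iron. All iron libraries were above all buffer libraries, and buffer replicate 1 was the nearest of these to the iron group. The fold difference was 1.42 (95% interval 1.14 to 1.76, edgeR adjusted p = 0.261). Without buffer replicate 1 it was 0.62 on the log2 scale (SE 0.12, edgeR adjusted p = 0.0136), in a range of 0.00313 to 0.485 over the 18 alternatives.

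*Psmd11*, a lid subunit that clamps the cap to the core, was at 100.4, 119, 139.7 and 139 CPM after buffer and 173, 162, 152 and 168 CPM after iron, 1.31-fold higher on the fitted scale (95% interval 1.07 to 1.62, edgeR adjusted p = 0.333). Buffer replicate 1 was its lowest library. *Psmd12*, another lid subunit, was at 179, 176, 157 and 168 CPM after buffer and 179, 207, 185 and 179 CPM after iron. Its groups were separate by the smallest of margins, 179.17 against 179.34 CPM, and its fold difference was 1.10 (95% interval 0.925 to 1.32).

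**Figure D2:**
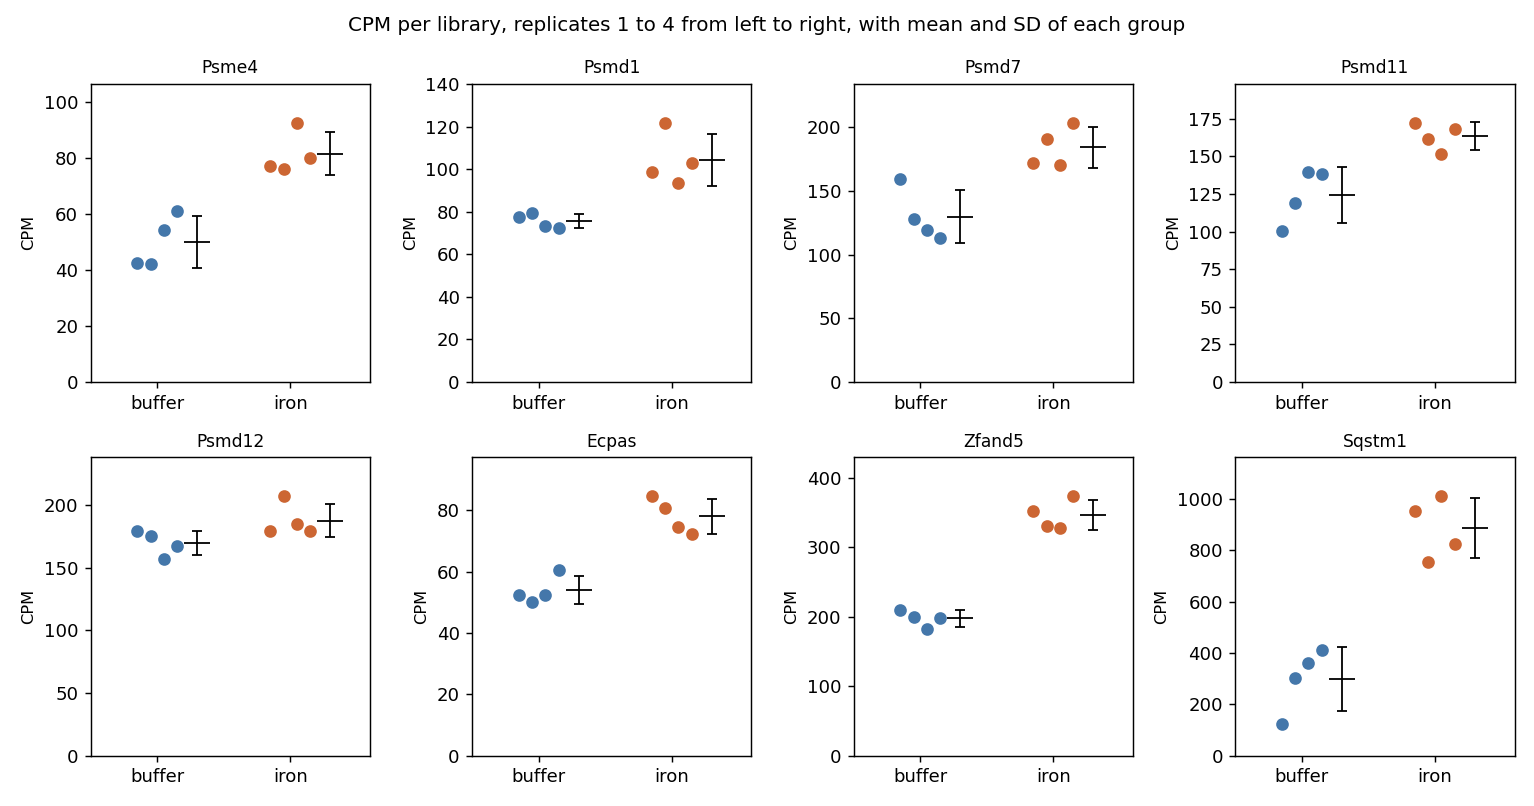
CPM (y axis, from 0) in each library for the 5 subunits whose groups did not overlap and for 3 related genes, with buffer libraries in blue, iron libraries in orange and the mean with its SD beside each group. *Psme4* runs from 42.2 to 60.9 CPM after buffer and from 75.9 to 92.7 CPM after iron, while the *Psmd12* groups almost touch.

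At the low end of this group were *Psmd14* and *Psmd9*. *Psmd14*, the deubiquitinase of the lid that removes the ubiquitin chain from a substrate, was at 19.3, 18.6, 26.2 and 20.5 CPM after buffer and 16.1, 17.4, 19.9 and 16.1 CPM after iron (log2 fold change -0.28, 95% interval -0.69 to 0.12, edgeR adjusted p = 0.399). It thus lay on the other side of 0 from its lid partner *Psmd7*, and the difference between them was not tested. *Psmd5*, *Psmd9* and *Psmd10* are chaperones that help to assemble the base and leave it, and their log2 fold changes were 0.34, -0.28 and -0.10. Without these 3 the median of the remaining 11 was 0.09. The ubiquitin receptor *Psmd4* had a log2 fold change of -0.13 (-0.40 to 0.15), and *Psmd2*, the other large scaffold, 0.23 with a wider interval (-0.35 to 0.81). In *Psmd2*, buffer replicate 1 held only 36.2 CPM against 67.0 to 89.2 CPM in the other buffer libraries. The other lid subunits *Psmd3*, *Psmd6*, *Psmd8* and *Psmd13* lay between -0.06 and 0.09. The median of the 14 was 0.03 without buffer replicate 1 and turned to -0.03 with the silent-family covariate. Summed, the 14 took 1104, 1170.4, 1291 and 1315 CPM after buffer and 1340.3, 1386, 1373 and 1357 CPM after iron. The groups of this sum did not overlap, with library totals as the scale as well. The margin was small beside the spread of the buffer libraries. The sum holds *Psmd1*, *Psmd7*, *Psmd11* and *Psmd12*, whose own groups did not overlap, so it is no separate result on the cap. It was not tested.

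The 6 ATPases of the cap, the ring that unfolds substrates, had a median log2 fold change of 0.03 (range -0.07 to 0.38), with 3 above 0 and 3 below (0.02 without buffer replicate 1, -0.04 with the silent-family covariate). *Psmc1* was highest in this group, at 67.3, 71.7, 107 and 103 CPM after buffer and 110.2, 97.1, 121 and 124 CPM after iron (95% interval -0.02 to 0.77). Its buffer replicates 1 and 2 were low, and the groups overlapped. *Psmc6* was at 39.1, 42.9, 52.1 and 51.6 CPM after buffer and 60.9, 60.5, 62.7 and 49.5 CPM after iron, with an unadjusted p of 0.0448 and an edgeR adjusted p of 0.333. *Psmc5* was lowest, at 124, 99.98, 118 and 113 CPM after buffer and 114, 99.62, 121 and 99.4 CPM after iron (log2 fold change -0.07, 95% interval -0.35 to 0.21). *Psmc2*, *Psmc3* and *Psmc4* lay within 0.08 of 0 on the log2 scale.

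In the alpha rings, which gate the entry to the core, the median log2 fold change over 6 subunits was 0.08, with no call by edgeR (0.01 without buffer replicate 1, -0.05 with the silent-family covariate). *Psma4* was lowest, at 269, 232, 238 and 227 CPM after buffer and 202, 212, 225 and 251 CPM after iron (log2 fold change -0.12, 95% interval -0.39 to 0.16). *Psma1*, *Psma2*, *Psma6* and *Psma7* had log2 fold changes of 0.10, -0.07, 0.11 and 0.05. *Psma8*, the testis form that replaces *Psma7* in germ cells, was at 1.71, 1.501, 1.33 and 1.85 CPM after buffer and 3.12, 2.42, 2.73 and 1.19 CPM after iron. Its counts were 13 to 32 per library, and its log2 fold change of 0.56 had an interval of -0.26 to 1.38.

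The 7 beta subunits outside the immunoproteasome had a median log2 fold change of -0.08, with 3 above 0 and 4 below (-0.19 without buffer replicate 1, -0.15 with the silent-family covariate). The catalytic subunits were close to even: *Psmb6* was at 66.6, 57.1, 98.2 and 75.1 CPM after buffer and 79.9, 64.5, 89.2 and 69.5 CPM after iron (log2 fold change 0.03, 95% interval -0.38 to 0.44), and *Psmb7* at 189, 139, 187 and 192 CPM after buffer and 203, 211, 210.5 and 168 CPM after iron (0.16, -0.16 to 0.49). Groups overlapped in both. *Psmb7* had the highest log2 fold change of the beta ring. *Psmb4*, a structural subunit, was at 134, 99.4, 91.7 and 96.1 CPM after buffer and 71.2, 88.8, 97.4 and 73.3 CPM after iron (log2 fold change -0.35, edgeR adjusted p = 0.333), with buffer replicate 1 its highest library. The structural subunits *Psmb1*, *Psmb2* and *Psmb3* had log2 fold changes of 0.15, -0.22 and -0.08, and *Psmb1* was read through few counts (31 to 70 per library).

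*Psmb11*, the catalytic subunit of the thymus proteasome, had the lowest log2 fold change of all members, -1.07 with an interval of -2.23 to 0.08 (edgeR adjusted p = 0.333). It was at 27.2, 12.0, 7.56 and 5.43 CPM after buffer and 4.10, 8.28, 4.20 and 8.26 CPM after iron. Buffer replicates 1 and 2 were above the other 6 libraries, buffer replicate 1 by far the most, and they are the libraries with the most counts on families silent in liver. The coding sequence of *Psmb11* lies in a single exon in each of its 2 coding transcripts in GENCODE M21. No other member had a single-exon coding sequence in all of its coding transcripts. Whether this bears on the values of *Psmb11* was not tested. Without both libraries its log2 fold change was -0.08 (edgeR adjusted p = 0.972), and with the silent-family signal as a covariate -0.10 (adjusted p = 0.885), in a range of 0.159 to 0.972 over the 18 alternatives.

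**Figure D3:**
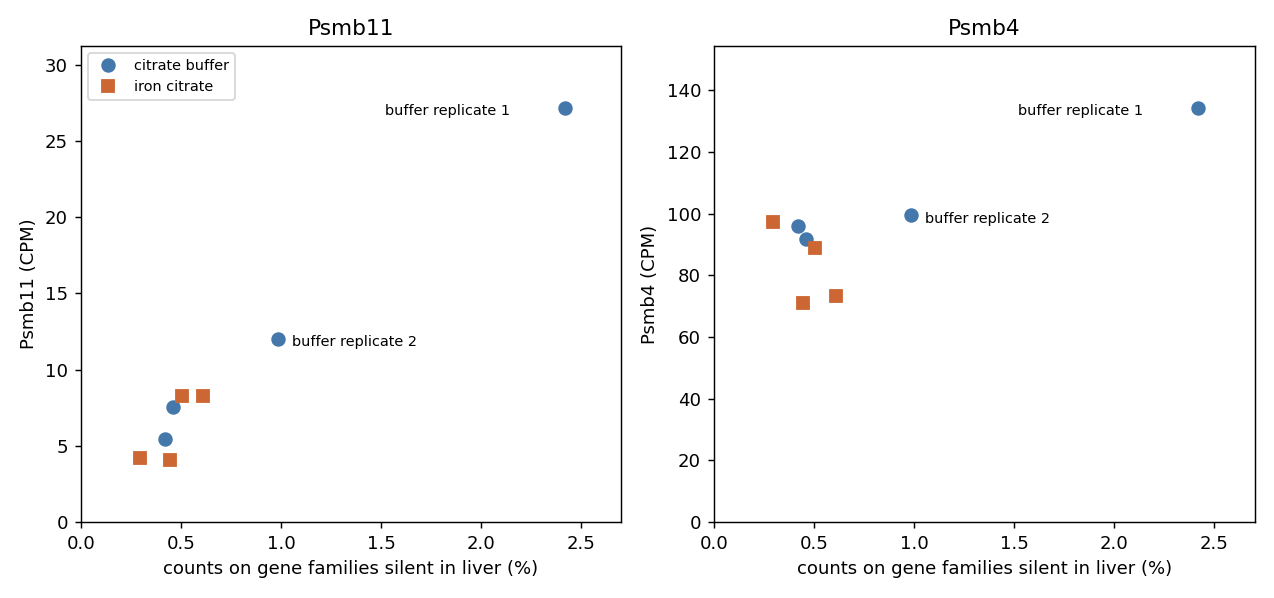
CPM of *Psmb11* (left) and *Psmb4* (right) against the percentage of each library's counts on gene families silent in liver. Buffer libraries are blue circles and iron libraries orange squares. *Psmb11* reaches 27.2 CPM in buffer replicate 1 at 2.42% and 12.0 CPM in buffer replicate 2 at 0.98%. The other 6 libraries lie between 4.10 and 8.28 CPM. *Psmb4* is also highest in buffer replicate 1, at 134 CPM, against 71.2 to 99.4 CPM in the other libraries.

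All 3 immunoproteasome subunits had a log2 fold change below 0 in the analysis of all 8 libraries, with a median of -0.32. That median was -0.40 without buffer replicate 1 and -0.50 with the silent-family covariate. The 3 also lay below 0 in each of the 18 alternatives, which reuse the same libraries and are no independent repeats. None of the 3 was called in the analysis of all 8 libraries. *Psmb8*, the inducible chymotrypsin-like subunit, was at 288, 234, 273 and 231 CPM after buffer and 179, 213, 248 and 183 CPM after iron. The log2 fold change was -0.32 (95% interval -0.65 to 0.01, edgeR adjusted p = 0.333). Iron replicate 3 overlapped the buffer range and the other iron libraries lay below it.

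*Psmb9*, the inducible partner of *Psmb6*, was at 16.0, 23.5, 24.8 and 21.2 CPM after buffer and 13.7, 15.2, 18.8 and 15.4 CPM after iron. Its log2 fold change was -0.44 (SE 0.20, 95% interval -0.89 to 0.00, edgeR adjusted p = 0.333), and buffer replicate 1, the lowest buffer library, was the one that overlapped the iron group. *Psmb10*, the inducible partner of *Psmb7*, was at 49.8, 64.2, 68.8 and 75.7 CPM after buffer and 49.1, 49.8, 66.1 and 46.4 CPM after iron, with iron replicates 2 and 3 inside the buffer range. The log2 fold change was -0.29 (95% interval -0.67 to 0.09, edgeR adjusted p = 0.368). The silent-family covariate was the 1 alternative of 18 that called it lower (log2 fold change -0.50, edgeR adjusted p = 0.0454, in a range of 0.0454 to 0.595). Summed, the 3 took 354, 322, 367 and 328 CPM after buffer and 242, 278, 333 and 245 CPM after iron, and iron replicate 3 again reached into the buffer range.

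The ratio of an inducible subunit to its constitutive partner within 1 library does not depend on how libraries are scaled. Per 100 counts of *Psmb6* there were 24.1, 41.2, 25.3 and 28.2 counts of *Psmb9* in buffer replicates 1 to 4 and 17.1, 23.5, 21.1 and 22.2 in iron replicates 1 to 4. The 4 iron values lay below the 4 buffer values, by a small margin between buffer replicate 1 and iron replicate 2. Per 100 counts of *Psmb7* there were 26.3, 46.1, 36.7 and 39.4 counts of *Psmb10* after buffer and 24.2, 23.6, 31.4 and 27.6 after iron, and buffer replicate 1 lay within the iron range. These ratios were chosen after the values were seen and were not tested. The third pair could not be formed, since *Psmb5* was not analysed here.

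**Figure D4:**
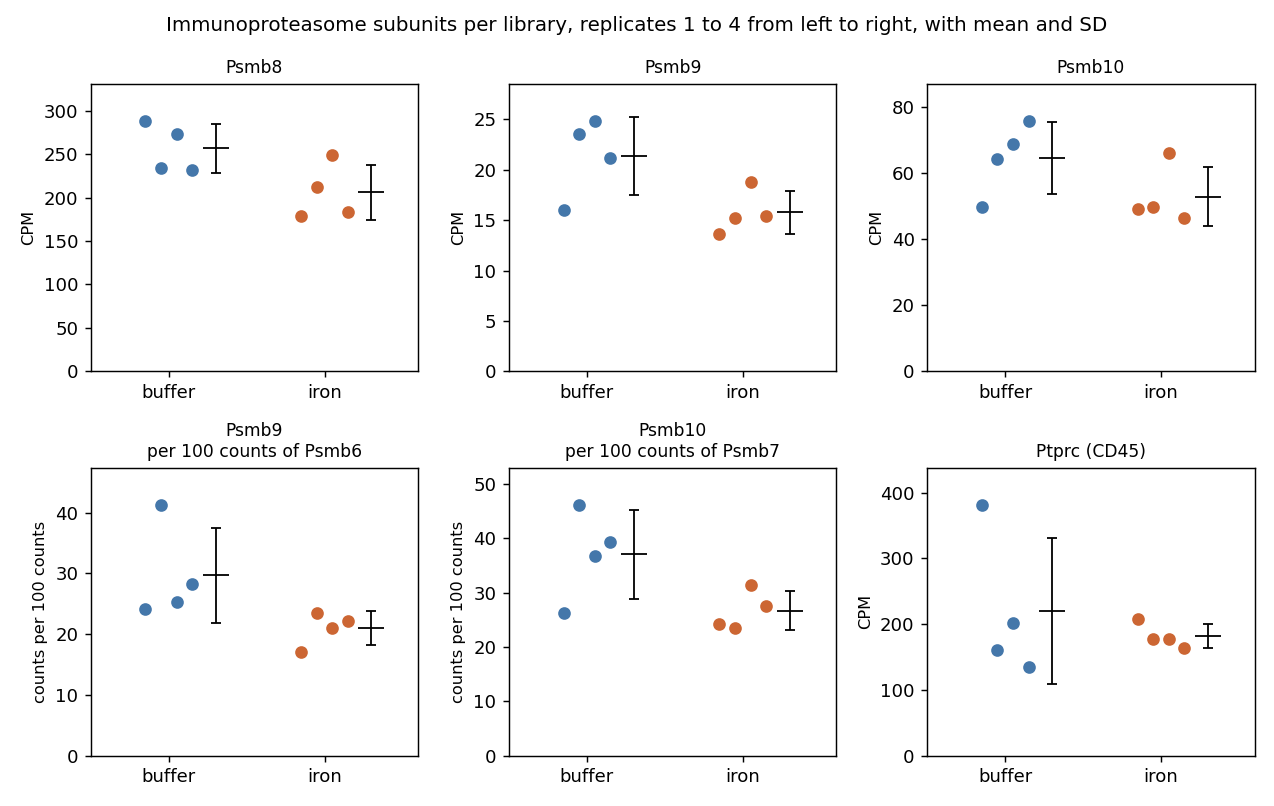
CPM per library of *Psmb8*, *Psmb9* and *Psmb10* (top), and *Psmb9* per 100 counts of *Psmb6*, *Psmb10* per 100 counts of *Psmb7* and CPM of *Ptprc* (bottom), all from 0, with buffer in blue, iron in orange and the mean with its SD beside each group. Means are lower after iron for all 3 subunits, the groups overlap in each, and *Ptprc* is high in buffer replicate 1 alone.

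Leukocytes also express the immunoproteasome. *Ptprc*, which encodes CD45, was at 381, 161, 202 and 135 CPM after buffer and 208, 177, 177 and 165 CPM after iron, and the whole leukocyte list summed to the values given above, with 0 of 13 markers called by edgeR over all 8 libraries and a median log2 fold change of -0.07. DESeq2 called *Cd52* lower (log2 fold change -0.59, adjusted p = 0.0478). *S100a8*, a neutrophil gene, had a log2 fold change of -0.22 with all libraries and was called higher without buffer replicate 1 (0.78, edgeR adjusted p = 0.0182). The part of leukocyte RNA in the immunoproteasome values was not tested. Buffer replicate 1 had the most *Ptprc*, and it had the highest *Psmb8* and the lowest *Psmb9* and *Psmb10* among the buffer libraries. Leukocyte markers did not move as 1 in that library. It was the highest of the 8 libraries in 7 of the 13 markers (37.3% of all tested targets) and the lowest in 3 (36.7%).

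The genes that work with the immunoproteasome were measured beside it. *Psmb9* and *Psmb8* lie next to the peptide transporter genes *Tap1* and *Tap2* in the class II region of the major histocompatibility complex. *Tap1* was at 21.3, 31.0, 42.2 and 44.5 CPM after buffer and 34.6, 27.8, 44.4 and 30.2 CPM after iron (log2 fold change -0.02, 95% interval -0.57 to 0.53). Without buffer replicate 1 it was -0.19 (edgeR adjusted p = 0.654) and with the silent-family covariate -0.36 (0.180). edgeR called none of 11 tested antigen processing genes with all 8 libraries. Their log2 fold changes had a median of 0.00, which was -0.11 without buffer replicate 1 and -0.23 with the covariate, beside -0.40 and -0.50 for the immunoproteasome. *Irf1*, a factor that drives the inducible subunits, was at 195 ± 13.8 and 211 ± 27.7 CPM (SD, n = 4; log2 fold change 0.11, edgeR adjusted p = 0.667). Among 11 tested interferon-induced genes none was called by edgeR either, with 3 log2 fold changes above 0, 8 below and a median of -0.06. At an unadjusted p under 0.05, 1 of the 11 antigen processing genes was higher and 1 lower, against 6.57% and 8.0% of all tested targets. Higher was the chaperone calnexin (*Canx*, log2 fold change 0.36), and lower the peptide editor *Tapbpl* (-0.29), which DESeq2 called lower (adjusted p = 0.0341). Of the 11 interferon-induced genes, 1 was lower at this threshold, the chemokine *Cxcl9* (log2 fold change -0.53, edgeR adjusted p = 0.333).

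Regulators and partners of the proteasome gave 1 call. Of 34 tested genes in 4 lists (assembly, bound proteins, transcription factors, and ubiquitin supply and receptors), 1 rose and none fell, against 0.527% and 0.0274% of all targets, and their median log2 fold change was 0.19. Buffer replicate 1 was the lowest library in 18 of the 34 (36.7% of all tested targets). The median was 0.12 without that library and 0.07 with the silent-family covariate. *Zfand5*, a zinc-finger protein that binds ubiquitin and stimulates the proteasome, was at 209.7, 199.9, 181 and 198 CPM after buffer and 352, 330.4, 327 and 373 CPM after iron. Its lowest iron library was well above its highest buffer library. It rose 1.75-fold (95% interval 1.46 to 2.10, log2 fold change 0.81, SE 0.12, edgeR adjusted p = 0.0120). The call was kept in 10 of 18 alternatives (adjusted p 5.93e-13 to 0.0902), and in 8 it missed the threshold at log2 fold changes of 0.69 to 0.83. The call was lost without buffer replicate 2 (edgeR adjusted p = 0.0699) or 3 (0.0723) and without iron replicate 1 (0.06), 2 (0.054) or 4 (0.0574), and also with library totals (0.0544), upper-quartile factors (0.0623) or replicate numbers as a block (0.0902).

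*Ecpas*, which encodes the adaptor ECM29 that ties the cap to the core, was at 52.4, 50.2, 52.5 and 60.5 CPM after buffer and 84.5, 80.8, 74.5 and 72.2 CPM after iron. The groups did not overlap, and the fold difference was 1.45 (95% interval 1.20 to 1.74, edgeR adjusted p = 0.135, and 0.00136 to 0.456 over 18 alternatives, with 4 calls). *Sqstm1*, the ubiquitin receptor p62 and a known NRF2 target, was at 125, 302, 359.7 and 413 CPM after buffer and 952, 756, 1011 and 826 CPM after iron. Every iron library was above every buffer library, with buffer replicate 1 lowest. Its fold difference was 2.95 with a wide interval (1.81 to 4.82, edgeR adjusted p = 0.0888), and it was called in 6 of 18 alternatives (adjusted p 8.28e-05 to 0.338). Without buffer replicate 1 its log2 fold change was 1.31 (edgeR adjusted p = 0.000158). *Nploc4*, a cofactor of the unfoldase that delivers ubiquitinated proteins, also had separate groups, at 41.4 ± 12.1 and 68.5 ± 10.9 CPM (edgeR adjusted p = 0.299), as had *Keap1*, the adaptor that marks NRF2 for degradation, at 15.4 ± 9.95 and 28.9 ± 4.03 CPM (adjusted p = 0.345). *Keap1* was at only 2.85 CPM in buffer replicate 1, and its log2 fold change of 0.91 was 0.57 without that library, 0.31 without both buffer replicates 1 and 2 and 0.35 with the covariate. *Nploc4* went from 0.73 to 0.57, 0.42 and 0.46 in the same order.

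Neither NRF factor was called by edgeR with all 8 libraries. *Nfe2l1* was at 45.2, 98.2, 153 and 193 CPM after buffer and 177, 135, 188 and 146 CPM after iron, a log2 fold change of 0.40 with an interval of -0.41 to 1.21, and buffer replicates 1 and 2 were its lowest libraries. Without buffer replicate 1 the log2 fold change of *Nfe2l1* was 0.13, and its direction turned without both (-0.10) and with the silent-family covariate (-0.06). *Nfe2l2* was at 209, 182, 181 and 172 CPM after buffer and 217, 231, 183 and 297 CPM after iron (log2 fold change 0.32, 95% interval -0.04 to 0.68, edgeR adjusted p = 0.333). Of the assembly chaperones *Psmg1*, *Psmg2* and *Psmg4* were measured, with log2 fold changes of 0.18, -0.09 and 0.01, and *Pomp*, the maturation factor, was not analysed here. *Sem1*, a small lid subunit that carries another name, was at 242 ± 20.6 and 205 ± 15.1 CPM (log2 fold change -0.24, edgeR adjusted p = 0.336). These values are mRNA levels, so the activity of the proteasome and the amount of its subunits were not measured.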

How the data were processed

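The authors deposited whole-number read counts per RefSeq target, 1 file for each of 8 libraries. The design text of the series speaks of more samples per group than the 4 analysed here. HTSeq 0.6.0 and DESeq2 1.18.1 are named in the submitters' processing notes. Which aligner, build and filters were used is not given in the sources used here. HTSeq's summary lines (2.15% to 4.60% of the reads in a file) entered neither library sizes nor tests. Accessions were matched to symbols with RefSeq tables of GRCm38.p6 and GENCODE M21, and 1368 of 23930 targets had no match. Near-identical family members and pseudogenes can share reads, and amplicon reads carry no molecular identifiers.

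Iron citrate was compared with citrate buffer over all targets left by filterByExpr (14601) with edgeR 4.0.16 in R 4.3.3, TMM factors and a robust quasi-likelihood F-test, with Benjamini-Hochberg adjustment over all of them. CPM use library sizes scaled by the TMM factors. Standard errors and 95% intervals were derived from the F statistic. P-values weigh the difference between groups against the spread between the libraries of a group. Alternatives were other scaling factors, DESeq2 1.42.0, limma-voom 3.58.1, other filters, the replicate block, each library left out, buffer replicates 1 and 2 left out, and a silent-family covariate. The lowest chi-square per degree of freedom between libraries of a group was 8.79, so none was a repeat. The edgeR step was tested on simulated data. No simulated library was made to stand apart as buffer replicate 1 did, so the test does not cover that feature.

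The members, lists and tests were chosen with earlier results of these data known. All members could be named; values in every library are given for the extremes of each group, the inducible subunits, their partners and the activators, and for regulators that were called or set beforehand. *Ecpas*, *Nploc4*, *Keap1*, *Canx*, *Tapbpl*, *Sem1*, *Cxcl9*, *Psmc6*, *Psmd1*, *Psmd11*, *Psmd12* and *Psmb4* are given for their values. So are the markers *Lyve1*, *Mcam*, *Cd52* and *S100a8*. *Stab2* and *Ptprc* are given as genes of the gate.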

Additional observations from a re-analysis of the deposited data

Results flagged for a closer look

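In 90 groups of 4 libraries (39 members and 6 sums in 2 groups each), 6 held a library far from the other 3, where chance gives about 1 in 20. *Psmc6* was at 49.5 CPM in iron citrate replicate 4, against 60.5 to 62.7 CPM in the other libraries of that group. *Psmd4* was at 108 CPM in citrate buffer replicate 1, against 83.9 to 87.6 CPM in the other libraries of that group. *Psma1* was at 30.4 CPM in iron citrate replicate 2, against 36.9 to 37.8 CPM in the other libraries of that group. *Psma7* was at 256 CPM in iron citrate replicate 3, against 207 to 213 CPM in the other libraries of that group. *Psmb1* was at 6.93 CPM in iron citrate replicate 3, against 4.31 to 4.59 CPM in the other libraries of that group. *Psmb7* was at 139 CPM in citrate buffer replicate 2, against 187 to 192 CPM in the other libraries of that group. Iron citrate replicate 3 was the high library for *Psma7* and *Psmb1*, and the others were spread over 4 libraries.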

How the results depend on the processing

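Of the 18 alternatives, 5 called a member higher where the analysis of all 8 libraries called 0: DESeq2 called 2, limma-voom 3, the silent-family covariate 3, the fit without citrate buffer replicate 1 called 2 and the fit without both citrate buffer replicates 1 and 2 called 1, each time among *Psme4*, *Psmd1* and *Psmd7*. A member was called lower in 1 alternative, *Psmb10* with the silent-family covariate. With 1 library left out, members called higher ranged from 0 to 2, members called lower were 0 throughout, and the median log2 fold change of the members ran from -0.03 to 0.10. Over all 18 alternatives that median stayed within 0.14 of its value of 0.03, the SD between libraries of a group. In 60 of 700 combinations of member and alternative, over 16 members, an uncalled log2 fold change changed sign. Upper-quartile factors moved the median of all targets by -0.11, and 13 members then lay above 0 and 26 below, against 21 and 18 with TMM factors. Without citrate buffer replicate 1, an alternative chosen after seeing the data, 6 members had all iron values above buffer (8.71% of all targets) and 1, *Psmb9*, all below (4.22%). Without both citrate buffer replicates 1 and 2 these were 6 (12.1%) and 7 (10.0%).

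Under the replicate block no member was called higher or lower, 43 targets were called in all against 81, and the members' median log2 fold change was 0.05. Deviations of same-numbered libraries correlated at -0.01, 0.17, 0.62 and -0.33 for numbers 1 to 4, and 1 of the 4 pairs, number 3, correlated best with its own number, so the numbers were not taken as pairing the samples. Counts limit *Psma8* and *Psmb1* most, at 13 to 32 and 31 to 70 per library.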
